A study of Canis lupus familiaris with 5 samples.

Results

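The genes described here are the dog genes whose symbol begins with ZNF and a digit, other than ZNF296, in chromatin immunoprecipitation sequencing (ChIP-seq) peak lists from an immortalized canine myoblast line. The symbol is that of the dog gene or, where the dog gene has none, of its human homolog, and the name alone chose the members. They were 178 of the 11509 named genes nearest to a peak (173 symbols, 31 of the genes named only through the human homolog). A gene enters this set by being nearest to a peak of any list, so a peak in at least 1 list is a matter of construction. The other 11331 named genes, ZNF296 among them, served as the comparison.

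The 3 lists come from 1 library each: human DUX4 in a monoclonal line, canine DUXC in a monoclonal line and the canine isoform DUXC-ALT in a polyclonal line, so clonality differs along with the factor. Each factor sat in the pCW57.1 vector and was labelled inducible with doxycycline (1 µg/ml, 24 hours). Per the labels the canine proteins carried the carboxyterminal domain of human DUX4, against which the rabbit antiserum was raised. Luciferase lines, 1 polyclonal and 1 monoclonal and both labelled as not inducible, have no peak list and were not analysed here. The lists held 85825 DUX4, 6031 DUXC and 561 DUXC-ALT peaks on the dog build canFam3, of which 46.6%, 53.2% and 50.1% had a named nearest gene. The number of reads behind them is unknown. With 1 library per factor no difference has a replicate check, no p-value is given, and the 95% intervals (exact Clopper-Pearson) cover counting error only.

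ZNF genes encode zinc finger proteins, the largest group of mammalian transcription factors. In the common C2H2 type each finger is a short loop held by a zinc ion between cysteines and histidines, and fingers in tandem read successive bases of DNA. Many ZNF proteins also carry a KRAB domain, which recruits the corepressor TRIM28 and the histone methyltransferase SETDB1 and silences transposable elements. KRAB zinc finger genes multiplied by tandem duplication and lie in clusters, and their fingers are usually encoded together in the last exon. DUX4 is an embryonic double homeobox factor that activates cleavage-stage genes and certain endogenous retroviral repeats.

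DUXC peaks lay at ZNF genes about as often as at other genes. ZNF217, a repressor gene amplified in breast cancer, had 3 DUXC peaks, 2 of them within 1 kb of a TSS, and ZNF346, which encodes a double-stranded RNA-binding protein, had the highest DUXC fold enrichment of the family. A DUX4 peak was nearest to 173 of the 178 ZNF genes (97.2%, 93.6 to 99.1%), beside 97.5% of the other named genes. A DUXC peak was nearest to 43 (24.2%, 18.1 to 31.1%), beside 23.0% of the others. DUXC-ALT peaks were nearest to 3 (1.69%, 0.349 to 4.85%), beside 2.36%. All 3 background shares lay inside the ZNF intervals. Only peaks in the gene or within 5 kb of it left 120 ZNF genes for DUX4 (67.4%, 60.0 to 74.2%; other genes 68.5%) and 24 for DUXC (13.5%, 8.83 to 19.4%; other genes 12.0%). For DUXC-ALT they left 0 of 178, where the limit of 3 counts allows up to 1.69%, beside 1.16% of the other genes.

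Most ZNF genes had few peaks. The 178 genes held 459 DUX4, 54 DUXC and 3 DUXC-ALT peaks. In the DUX4 list 69 ZNF genes had 1 peak, 37 had 2 and 29 had 3, and 25 (14.0%) had 5 or more, beside 23.9% of the other named genes. ZNF genes with a DUX4 peak had a mean of 2.65 such peaks, the others 3.58, and both medians were 2. ZNF genes were also shorter: the longest transcript named in the lists had a median of 15148 bp, beside 25826 bp. Among the 3302 other named genes with a length between the ZNF quartiles (7422 to 32122 bp), the mean was 2.43 DUX4 peaks. For DUXC the mean was 1.26 peaks at ZNF genes, 1.21 at all other named genes and 1.14 at those of similar length.

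**Figure D1:**
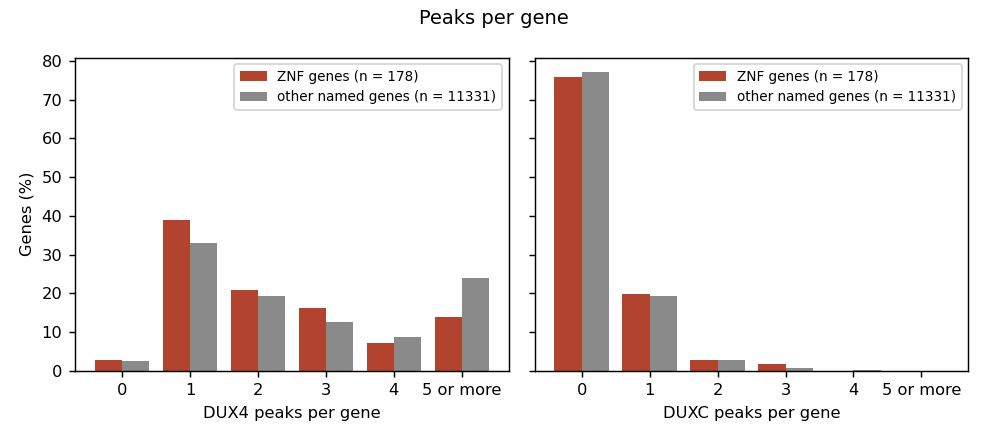
Share of genes (%, y axis) by number of peaks nearest to the gene (x axis) for the DUX4 list (left) and the DUXC list (right); red bars are the 178 ZNF genes and grey bars the 11331 other named genes. For DUX4, 38.8% of ZNF genes had 1 peak and 14.0% had 5 or more, beside 33.1% and 23.9% of the others; for DUXC the bars at 0 peaks were 75.8% and 77.0%.

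The ZNF genes with the most DUX4 peaks had no other ZNF gene of the lists within 100 kb, as was so for 108 of all 178. ZNF516, whose protein acts on brown fat genes in the mouse, had 15 DUX4 peaks and no peak in the other lists. ZNF804B followed with 14, ZNF608 and ZNF648 with 10 each and the gene with homolog ZNF705G with 9. Of the ZNF516 peaks, 13 were intergenic and 2 lay in its intron 2, and the farthest was 419753 bp from the transcription start site (TSS). Their fold enrichments ran from 5.40 to 19.2. Fold enrichment here is the peak caller's ratio of the signal at the summit to its local background, with a scale of its own in each list.

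In the DUX4 list the strongest ZNF site, at ZNF575, had a fold enrichment of 24.1 (rank 93 of 85825; chromosome 1, 111592840 to 111593288). It lay 8480 bp upstream of the ZNF575 TSS, in intron 3 of an unnamed gene, and its summit was in an L1_Canid2 copy. ZNF641 followed with 23.7 (rank 113), 3449 bp upstream of the TSS in a MER33 DNA transposon copy. The list went on with ZNF184 (20.6, intergenic, 53778 bp from the TSS), intron 1 of ZNF277 (19.7) and ZNF516 (19.2, intergenic, 369215 bp from the TSS). ZNF350, which encodes the BRCA1-binding repressor ZBRK1, followed (18.4, 1413 bp upstream of the TSS). Next came the ZNF705G homolog (18.0, intergenic, 14495 bp from the TSS) and intron 1 of ZNF704 (17.6). The last were intron 2 of ZNF536, a repressor gene of neuronal differentiation (16.8), and intron 4 of ZNF283 (16.5). Of these 10 sites, those at ZNF641, ZNF350 and ZNF705G overlapped a DUXC peak. The summits at ZNF575, ZNF641, ZNF277, ZNF705G, ZNF704 and ZNF283 lay in repeats.

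The DUXC list was headed by ZNF346, whose peak in intron 1 had a fold enrichment of 14.4 (rank 114 of 6031; chromosome 4, 36291344 to 36291706). ZNF710 (11.0, intergenic), ZNF217 (11.0) and ZNF445, a gene of imprinting control (10.2, intergenic, 21544 bp from the TSS), came next. They were followed by intron 4 of ZNF277 (9.89), the ZNF705G homolog (9.85), intron 1 of the gene with homolog ZNF713 (9.80), the promoter of ZNF677 (9.75), ZNF641 (9.30) and intron 1 of ZNF609 (9.17). ZNF609 is also the source of a circular RNA known from mouse and human myoblasts. Of these 10, those at ZNF277 and ZNF713 overlapped no DUX4 peak.

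The strength of ZNF peaks within the DUX4 and DUXC lists was close to that of other genes' peaks. Median fold enrichment of DUX4 peaks was 7.15 at ZNF genes (quartiles 5.74 and 9.68) and 7.37 at other named genes (5.89 and 9.77). DUXC peaks had 6.99 (6.16 and 8.15) at ZNF genes and 7.03 (5.93 and 8.48) at the others. A fold enrichment of 10 or more was reached by 103 of 459 ZNF peaks for DUX4 (22.4%, 18.7 to 26.5%; others 23.6%) and by 5 of 54 for DUXC (9.26%, 3.08 to 20.3%; others 13.6%). The 3 DUXC-ALT peaks had a median of 9.33 (range 8.49 to 9.39), beside 8.30 at other named genes. Of these 3, 0 reached 10, beside 18.7% of the others.

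**Figure D2:**
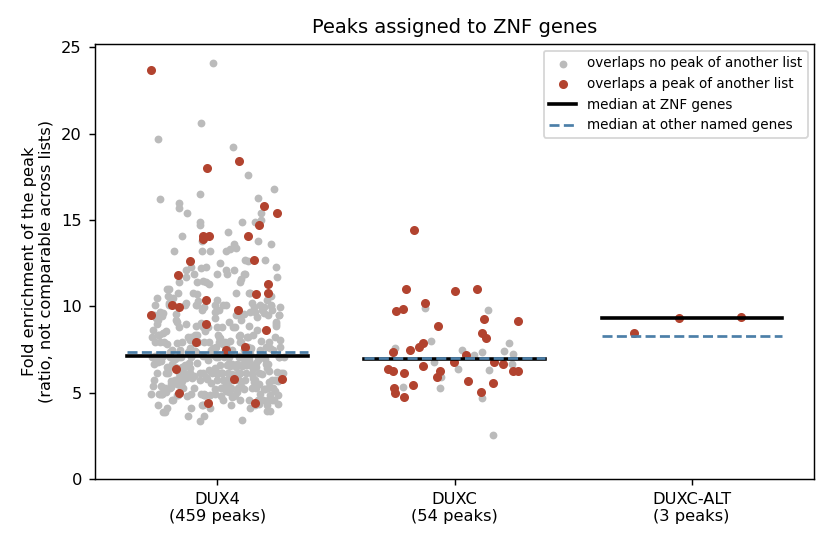
Fold enrichment (y axis, ratio) of every peak nearest to a ZNF gene, by list (x axis); each point is 1 peak, red where it overlaps a peak of another list. Black lines mark medians at ZNF genes (7.15, 6.99 and 9.33) and dashed blue lines medians at other named genes (7.37, 7.03 and 8.30); the scale differs between lists, so heights compare within a column only.

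DUX4 and DUXC peaks met at 32 places nearest to 27 ZNF genes (15.2% of genes, 10.2 to 21.3%; other named genes 13.8%). Of the 54 DUXC peaks at ZNF genes 32 overlapped a DUX4 peak (59.3%, 45.0 to 72.4%), beside 56.1% of DUXC peaks at other genes. Of the 459 DUX4 peaks 32 overlapped a DUXC peak (6.97%, 4.82 to 9.70%), beside 4.47% at other named genes and 5.55% (5.05 to 6.08%) at those of similar length. The interval thus lay above the value of all other named genes and held that of genes of similar length. Summits of the 32 pairs were a median of 37.5 bp apart (0 to 147 bp), beside 33.0 bp at other genes.

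Shared places had a higher median DUX4 fold enrichment, at ZNF genes and at other genes, with no test. It was 10.5 at the 32 shared and 7.06 at the 427 unshared ZNF peaks, and 10.7 and 7.34 at other genes. DUXC medians were 6.99 at both shared and unshared ZNF peaks, and 7.20 and 6.75 at other genes.

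ZNF217 was shared throughout: each of its 3 DUXC peaks overlapped a DUX4 peak. The first lay 300 bp upstream of one TSS (DUXC 11.0, DUX4 10.8; chromosome 24, 39423839 to 39424187). A second was in intron 1 (10.9 and 15.8), and the third covered the TSS of the longer transcript (8.48 and 14.1; 39438107 to 39438515). None of the 3 had a recorded repeat. A further DUX4 peak in intron 1 (3.92) had no DUXC partner.

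At ZNF346 both DUXC peaks were shared as well. The strong intronic one was recorded with a SINEC_Cf element, a dog short interspersed element (SINE), in both lists (DUXC 14.4, DUX4 13.9), and the DUXC summit lay inside it while the DUX4 summit lay outside. The other, 301 bp upstream of the TSS, had 6.38 in the DUXC and 7.67 in the DUX4 list. Further shared sites by DUXC fold enrichment were ZNF710 (11.0 and 8.96), ZNF445 (10.2 and 9.53), the ZNF705G homolog (9.85 and 18.0), ZNF677 (9.75 and 14.1), ZNF641 (9.30 and 23.7), ZNF609 (9.17 and 8.62), the gene with homolog ZNF852 (8.20 and 7.51) and ZNF536 (7.89 and 14.1). In each pair the first value is DUXC and the second DUX4.

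**Figure D3:**
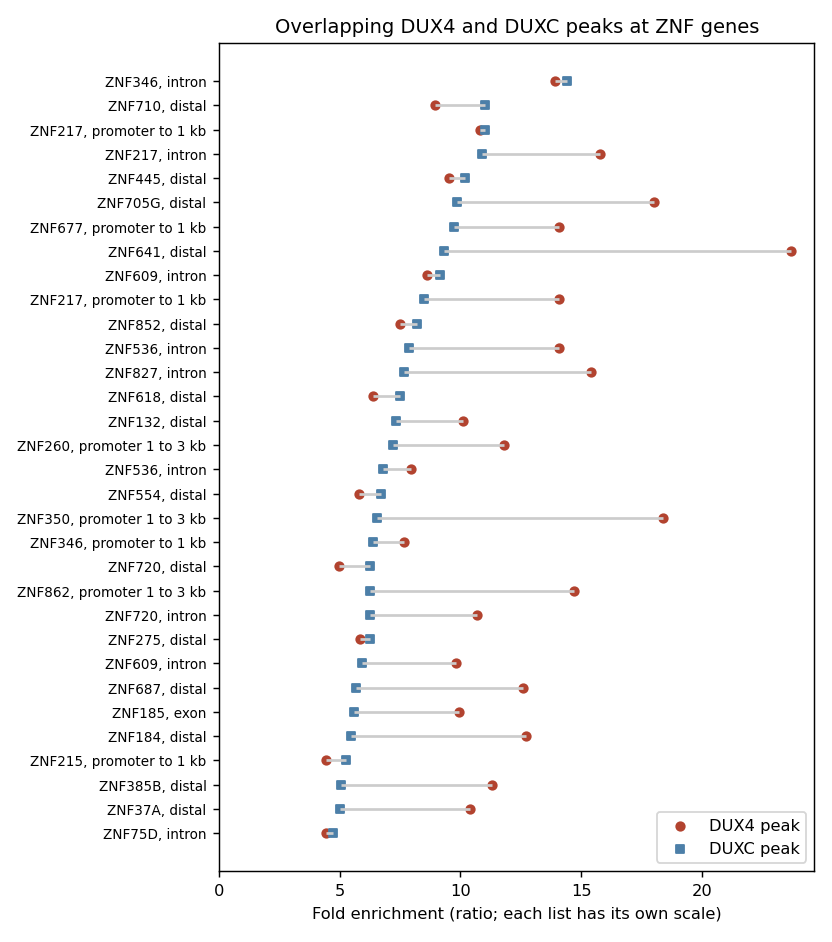
Overlapping DUX4 (red circles) and DUXC (blue squares) peaks at ZNF genes, 1 row per pair with the gene and the place of the DUXC peak; the x axis is fold enrichment (ratio), on a scale of its own in each list. DUXC values ran from 4.74 at ZNF75D to 14.4 at ZNF346, and DUX4 values from 4.42 at ZNF75D to 23.7 at ZNF641.

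The other 22 DUXC peaks at ZNF genes overlapped no DUX4 peak. They include the peaks of all 5 ZNF genes with no DUX4 peak in the list (2.81% of 178, beside 2.45% of the other named genes). Such genes enter the set only through a DUXC or DUXC-ALT peak, so having one is a matter of construction. Each of the 5 had 1 DUXC peak. These genes were the ZNF713 homolog (9.80), ZNF580 (8.89), ZNF385A, a p53 cofactor gene (7.90, intron 2), ZNF541 (7.42) and ZNF622, a gene of ribosome assembly (5.35, intron 6).

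All 3 DUXC-ALT peaks at ZNF genes lay more than 5 kb from the gene and met DUXC but not DUX4. The strongest lay 95831 bp upstream of ZNF608 (9.39; chromosome 11, 14501818 to 14501967) in a MER21B copy, a retroviral long terminal repeat (LTR), and in exon 4 of 4 of an unnamed gene, not of ZNF608. The overlapping DUXC peak there had 6.77, with summits 21 bp apart. A second lay 7051 bp upstream of ZNF580 (9.33; chromosome 1, 102107874 to 102108022), outside any recorded repeat, with DUXC at 8.89 and a summit gap of 23 bp. The last lay 30807 bp upstream of ZNF532, whose protein forms a chromatin complex with ZNF687 (8.49; chromosome 1, 17241768 to 17241877). Its summit was in an L1MB3 copy, and DUXC there had 6.14 with a gap of 48 bp.

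Overlap with DUXC was thus 3 of 3 (interval 29.2 to 100%), beside 26.3% of DUXC-ALT peaks at other genes, and overlap with DUX4 was 0 of 3 (0 to 70.8%), beside 16.9%. The first interval lay above the value of the other genes, and it was the same with summits within 100 bp as the rule. When the overlap had to cover 50% of both peaks the share was 33.3% (0.840 to 90.6%). Without chromosome 1 it was 100% with an interval of 2.50 to 100%. These last 2 intervals held 26.3%, which was not recomputed under the other rules. The interval for DUX4 held 16.9%. Seen from the DUXC list, 3 of 54 ZNF peaks overlapped DUXC-ALT (5.56%, 1.16 to 15.4%; others 2.32%). From the DUX4 list it was 0 of 459, where 3 counts allow up to 0.654%, beside 0.119% of peaks at other genes.

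Promoters within 1 kb of a TSS held 7 of 54 DUXC peaks, at ZNF217, ZNF677, ZNF346, ZNF614, ZNF575 and ZNF215. That is 13.0% of peaks (5.37 to 24.9%), beside 5.87% at other named genes and 8.82% at those of similar length. Counted by gene it was 6 of 178 (3.37%, 1.25 to 7.19%), beside 1.61% of the others. Either interval held the value of the other genes. ZNF677 had its peak 832 bp downstream of the TSS (9.75), ZNF614 455 bp downstream (6.36), ZNF575 427 bp upstream (6.31) and ZNF215, an imprinted gene in human, 323 bp upstream (5.28). The peaks at ZNF614 and ZNF575 met no DUX4 peak.

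DUX4 peaks lay within 1 kb of a TSS at 13 ZNF genes (7.30%, 3.95 to 12.2%; other genes 8.37%). The highest were at ZNF217 and ZNF677 (14.1 each). They were followed by ZNF131 (7.93), ZNF346 (7.67), ZNF24 (7.49, covering the TSS), ZNF229 (6.38, covering the TSS), ZNF311 (5.74), ZNF48 (5.42), ZNF614 (5.30) and ZNF821 (4.92). The DUX4 promoter peak of ZNF614 lay 250 bp upstream of a TSS and did not overlap the DUXC peak of that gene.

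Introns held fewer and intergenic sequence more of the DUX4 peaks at ZNF genes than at other genes. The intron share was 31.2% (143 of 459, 26.9 to 35.6%), beside 41.9% (41.4 to 42.4%) at other named genes and 31.3% (30.2 to 32.3%) at those of similar length. Distal intergenic sequence held 52.3% (47.6 to 56.9%), beside 46.0% and 50.2% in the same order. Peaks up to 3 kb downstream of a gene made up 2.18% (1.05 to 3.97%), beside 0.849% and 1.69%. For each of the 3 places the value of all other named genes lay outside the ZNF interval and that of genes of similar length inside it. The median distance to the TSS was 17404 bp at ZNF genes, 27167 bp at other named genes and 16584 bp at those of similar length. DUXC peaks at ZNF genes were intronic in 35.2% (22.7 to 49.4%; others 38.3%) and distal in 38.9% (25.9 to 53.1%; others 43.7%).

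**Figure D4:**
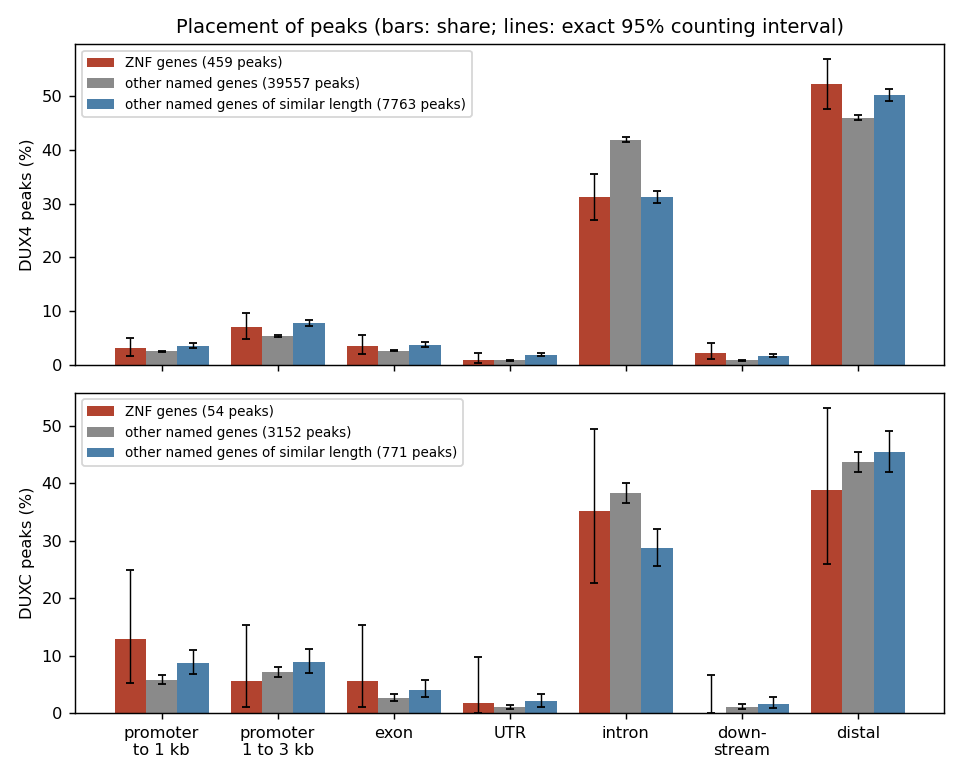
Share of peaks (%, y axis) by place relative to genes (x axis) in the DUX4 list (top) and the DUXC list (bottom) for ZNF genes (red), all other named genes (grey) and other named genes of similar length (blue); lines are exact 95% counting intervals. DUX4 intron peaks made up 31.2% at ZNF genes, 41.9% at all others and 31.3% at those of similar length.

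The place given for a peak can belong to a gene other than the one it is assigned to. Of the 159 DUX4 peaks at ZNF genes annotated to an exon or intron, 143 lay in the assigned gene (89.9%, 84.2 to 94.1%; others 74.2%), and of 22 such DUXC peaks 18 did. The exon peak assigned to the ZNF705G homolog with a fold enrichment of 13.8 lay in exon 7 of GPM6A, 133612 bp away, and that assigned to ZNF74 (6.21) in an unnamed gene.

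Exons of their own ZNF gene held DUX4 peaks at 12 genes (6.74%, 3.53 to 11.5%; other genes 5.82%). ZNF207, which encodes a spindle assembly protein, had the strongest (15.4, exon 8 of 11; chromosome 9, 40598225 to 40598813). It was followed by ZNF782 (14.7, exon 5 of 5; chromosome 1, 70106085 to 70106600), ZNF185, whose LIM domain protein binds actin (9.94, exon 16 of 23), ZNF572 (9.50, exon 3 of 3), ZNF277 (9.10, exon 7 of 12) and ZNF180 (7.23, exon 5 of 5). ZNF774 (6.15, exon 4 of 5) and ZNF789 (5.89, exon 5 of 5) came next. In the DUXC list 2 ZNF genes had a peak in an own exon (1.12%, 0.136 to 4.0%; others 0.538%). These were ZNF335, a gene of brain growth (6.78, exon 6 of 28), and ZNF185 (5.58, exon 16 of 23), where it overlapped the DUX4 peak.

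Exonic DUX4 peaks were then counted by exon, a count made only after the values were seen. Of 14 peaks in own exons of ZNF genes 8 lay in the last one (57.1%, 28.9 to 82.3%), at 7 genes, beside 27 of 729 (3.70%, 2.45 to 5.34%) at other named genes. At genes without a symbol it was 118 of 162 (72.8%, 65.3 to 79.5%), and what these encode is not given in the lists. Peaks annotated to an untranslated region (UTR) form a separate class and are left out of these counts. In the DUX4 list they were 4 at ZNF genes and 328 at other named genes. Last exons often hold such a region, so the shares are not those of whole last exons. The transcripts concerned had a median of 5 exons at ZNF genes, 17 at other named genes and 3 at genes without a symbol, and the part of exon number in these shares was not tested.

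The 7 genes were ZNF782 with 2 such peaks (14.7 and 6.09), ZNF572, ZNF180, ZNF789, ZNF558 (4.91, exon 7 of 7), 1 of the 4 dog genes with homolog ZNF720 (5.30, exon 2 of 2) and the ZNF705G homolog (5.26, exon 5 of 5). None of the 8 peaks had a recorded repeat. Over all DUX4 peaks at ZNF genes 74.1% had one. Among the DUX4 peaks in other own exons of ZNF genes, only that in exon 16 of ZNF185 had one. The lack of a repeat was therefore not particular to the last exon. None of the 8 overlapped a DUXC peak, where 6.97% of all DUX4 peaks at ZNF genes did, so this does not set them apart. Their local background, computed from the deposited values, was 1.09 to 2.00, below the 3.27 above which a background was called raised. Only 3.05% of all DUX4 peaks at ZNF genes had a raised background. Finger exons of related genes share sequence, and how reads with several matches were treated is not given in the sources used here. Its part in these peaks was not tested.

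**Figure D5:**
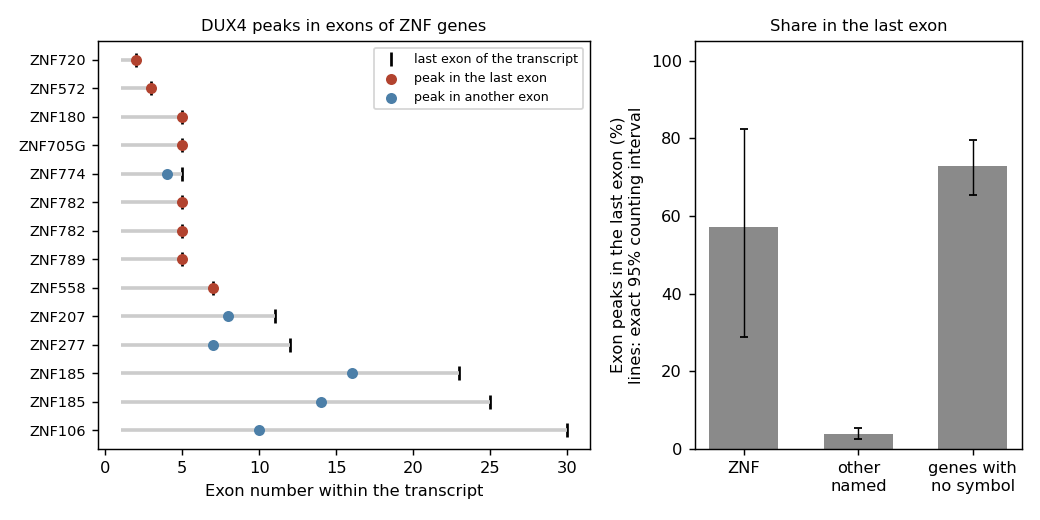
Left: each row is 1 DUX4 peak in an exon of its own ZNF gene, at its exon number (x axis) along a line that ends at the last exon; red points lie in the last exon. Right: share of exonic DUX4 peaks in the last exon (%, y axis; exact 95% counting intervals) for ZNF, other named and unnamed genes. The shares were 57.1%, 3.70% and 72.8%, at transcripts with a median of 5, 17 and 3 exons. Peaks annotated to a UTR are not counted.

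Repeats held the summit of 225 of 459 DUX4 peaks at ZNF genes (49.0%, 44.4 to 53.7%; others 46.4%) and of 22 of 54 DUXC peaks (40.7%, 27.6 to 55.0%; others 46.4%). Long interspersed elements (LINEs) held 29.4% of the DUX4 summits (25.3 to 33.8%; others 27.7%), with L1_Canis1, a dog L1 family, the most frequent name at 36 summits (7.84%; others 7.27%). LTRs held 10.7% (8.0 to 13.9%; others 10.5%) and SINEs 5.88% (3.91 to 8.44%; others 5.56%). Among DUXC peaks, SINEs held 11 summits (20.4%, 10.6 to 33.5%; others 16.5%), all of them in copies of the carnivore SINEC families. This share was lower under 2 other settings: 11.1% (3.11 to 26.1%) without chromosome 1 and 11.9% (3.98 to 25.6%) with dog symbols only. Both values were below the 16.5% of the other genes, and both intervals held it. The 16.5% was not recomputed under these settings. LINEs held 6 (11.1%, 4.19 to 22.6%; others 15.3%) and LTRs 4 (7.41%, 2.06 to 17.9%; others 12.6%). The value of the other genes lay inside the ZNF interval for each of these shares.

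SINE summits were also counted at shared and unshared DUXC sites. At ZNF genes 8 of 32 shared DUXC summits lay in a SINE (25.0%) and 3 of 22 unshared ones (13.6%), beside 21.1% and 10.7% at other genes; these shares were not tested against each other. ZNF260 was an example, with a SINEC_Cf copy 1515 bp upstream of the TSS holding both summits (DUXC 7.20, DUX4 11.8).

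Dog chromosome 1 carried 54 of the ZNF genes, 46 of them between 99130539 and 121302658. DUXC peaks were nearest to 15 of the 54 (27.8%, 16.5 to 41.6%), beside 25.1% (21.7 to 28.8%) of the 585 other named genes of that chromosome and 22.6% (15.6 to 31.0%) of ZNF genes elsewhere. SINEs held 7 of 18 DUXC summits at the ZNF genes of that chromosome (38.9%, 17.3 to 64.3%), 4 of 36 at ZNF genes elsewhere (11.1%) and 20.6% (15.1 to 27.1%) at its other named genes. Another ZNF gene named in the lists lay within 100 kb of 70 genes, and 108 stood alone. Neighboured genes had 1.87 DUX4 peaks per gene and lone ones 3.04, with median transcript lengths of 13002 and 18651 bp and median distances to the TSS of 11661 and 22197 bp. LINEs held 38.9% of DUX4 summits at neighboured (30.5 to 47.8%) and 25.6% at lone genes (21.0 to 30.7%). The 27.7% of the other named genes lay below the first interval and inside the second, and this was not tested. A DUXC peak was nearest to 22.9% (13.7 to 34.4%) and 25.0% (17.2 to 34.3%) of them. Neighbours divide the sequence between them when peaks go to the nearest TSS, and the part of this in the lower number per gene was not tested.

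More than 1 DUXC peak was nearest to 8 of the 178 ZNF genes (4.49%), beside 3.66% of the other named genes, a value inside the ZNF interval. Among the 8 were a ZNF720 homolog, ZNF37A and ZNF75D. One ZNF720 homolog had 3 DUXC peaks (6.25, 5.92 and 5.26) and another 1 (6.27), and the first and the last of these 4 overlapped DUX4 peaks (10.7 and 4.97). ZNF37A had 2 (7.51 and 5.01). The 3 peaks at ZNF75D (4.74, 4.68 and 2.57) lay in intron 1 of an unnamed gene on chromosome X, on a local background of 8.70, 8.84 and 12.2. The background was called raised above 2.48 in this list, and no other DUXC peak at a ZNF gene passed it. The overlapping DUX4 peak (4.42) had a local background of 11.5.

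Genes of the proteins that work with KRAB zinc fingers were counted in the same way. Of 34 symbols listed, 22 were named in the lists, for 24 genes, since SUMO2 and SUV39H2 each stood for 2. All 24 had a DUX4 peak (85.8 to 100%), beside 97.5% of the named genes outside the ZNF family. A DUXC peak was nearest to 2 (8.33%, 1.03 to 27.0%; background 23.0%) and a DUXC-ALT peak to 0 (0 to 14.2%; background 2.36%). The DUXC peaks were at DNMT1, the maintenance DNA methyltransferase gene (8.05), and 1497 bp upstream of HELLS, a chromatin remodeller gene (7.19, in a SINEC_Cf3 copy and shared with DUX4). The strongest DUX4 peaks lay in intron 6 of ATF7IP, the SETDB1 partner gene (17.6), in intron 3 of a SUMO2 gene, which encodes a small protein modifier (17.5), and near CHAF1B, a chromatin assembly gene (13.4). All 3 intervals held the background share.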

How the data were processed

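Per the submitters' processing notes, CASAVA, BWA 0.7.10, MACS2 2.1.0 and the build canFam3 were used, with no role or order named; the control library, thresholds and filters are not given in the sources used here. Per the labels, cells were crosslinked with formaldehyde (1%, 11 min) and fragments measured 150 to 600 bp. The deposited lists give, per the file headers, the signal height (pileup) and fold enrichment (a ratio) of each peak, −log10 p-values and −log10 q-values, the nearest gene and its distance to the TSS (read as a score in bp), and 1 repeat at most. Read depth is unknown. Peak names start with 1 library title each.

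Genes were counted by Ensembl gene ID from the deposited tables, using pandas 2.3.3, scipy 1.17.1 and numpy 2.4.6 under Python 3.11.15 (plots: matplotlib 3.10.9). Peaks overlapped when they shared at least 1 bp, and the overlap code was tested on planted overlaps. A repeat held a peak when the summit lay inside it. Local background was (pileup + 1) / fold enrichment − 1, raised above 3 times the list's percentile 1. Positions of transcripts are those of the lists. Members and lists were chosen with earlier results of these data known. Named genes are the strongest, promoter, exon, shared and most-bound ZNF genes by a set rule. No sequences were printed, since no dog sequence table was used here.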

Additional observations from a re-analysis of the deposited data

How the results depend on the processing

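Of 140 values of ZNF genes under other settings, 116 stayed close and 24 moved. A count of genes was called close within 1.5 times, and a share, median or mean inside its 95% interval. The settings chosen after the data were seen were the gene that holds the peak, counting by symbol, no raised background and own exons or introns. No paired analysis was possible because each factor has 1 library. Settings that keep fewer peaks lower the counts by construction, and for the rest the cause was not tested.

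At a fold enrichment of at least 10, 69 ZNF genes had a DUX4 peak, 4 a DUXC peak and 0 a DUXC-ALT peak. Other named genes were not counted at this cut. By peak, it was passed by 22.4% of DUX4 peaks at ZNF genes (others 23.6%) and 9.26% of DUXC peaks (others 13.6%). For DUXC-ALT it was 0 of 3 (others 18.7%). The DUX4 mean was then 1.49 peaks per gene, median fold enrichment 12.1 (DUXC 11.0), the intron share 25.2% and the distal share 58.3%. Partner peaks had to pass the same cut, and 2.91% of these DUX4 peaks met a DUXC peak that did. That value leaves out weaker DUXC partners, so it does not show that strong DUX4 peaks met DUXC less often. In the full lists the median DUX4 fold enrichment at ZNF genes was 10.5 for shared and 7.06 for unshared peaks. Of 5 DUXC peaks 20.0% had the summit in a repeat, 0% in a LINE and 0% lay in an exon. With peaks in or within 5 kb of the gene there were 24 ZNF genes for DUXC, 0 for DUXC-ALT and a DUX4 mean of 1.82 peaks. Without chromosome 1 there were 28 for DUXC and 1 for DUXC-ALT. Counting the gene whose exon or intron holds the peak gave 75, 17 and 0. Other named genes were not counted without chromosome 1 or by the gene that holds the peak. Those counts therefore have no background share beside them. With any overlap of the recorded repeat, repeat shares were 74.1% for DUX4 (SINE 16.6%, LINE 37.9%) and 70.4% for DUXC. Some small counts moved by over 1.5 times inside wide intervals. The DUXC SINE share was 11.9% with dog symbols only, 11.1% without chromosome 1 and 33.3% with any overlap, which also gave 18.5% in LINEs. Overlap of DUXC-ALT with DUXC was 33.3% at 50% of both peaks. DUXC promoters within 1 kb held 20.0% at a fold enrichment of at least 10, and own exons 3.70% of DUXC peaks. A −log10 q of at least 5 and summits within 100 bp moved no value past either limit.

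Of 28 values of the comparison genes, 16 moved. With chromosomes weighted as in ZNF genes, 97.2% had a DUX4 peak, 2.44% of DUX4 peaks were in exons and 53.6% of DUXC peaks overlapped DUX4. Among genes of similar length, 96.6% had a DUX4 peak, 20.6% a DUXC peak and 1.70% a DUXC-ALT peak. DUX4 means and shares there were 2.43 peaks per gene, 3.58% promoter within 1 kb, 3.71% exon, 31.3% intron and 50.2% distal. For DUXC they were 1.14 peaks per gene, 8.82%, 4.15%, 28.8% and 45.5%.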

Other observations

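Other zinc finger families also stood in the lists. Of the genes with a symbol of the ZSCAN, ZKSCAN, ZFP, ZBTB or KLF kind and a digit, 9, 2, 14, 20 and 11 were named. A DUXC peak was nearest to 2 ZSCAN, 0 ZKSCAN, 5 ZFP, 2 ZBTB and 4 KLF genes. The shares ran from 0 to 36.4%, and the interval of each family held the 23.0% of the named genes outside the ZNF family (0 to 84.2% for ZKSCAN). A DUXC-ALT peak was nearest to 1 KLF gene (9.09%, 0.230 to 41.3%; background 2.36%) and to none of the other 4 families.

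Peaks can lie in a ZNF gene and be assigned to a neighbour. Exons and introns of ZNF genes held 202 DUX4 peaks, of which 56 were assigned to a gene outside the family and 45 of those to a gene with no symbol. For DUXC it was 4 of 22 peaks, and no DUXC-ALT peak lay in an exon or intron of a ZNF gene.

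Of 264 ZNF symbols of protein-coding genes in the RefSeq annotation of another dog assembly (UU_Cfam_GSD_1.0), 140 were named in the lists (53.0%, 46.8 to 59.2%), beside 9371 of 17131 other symbols (54.7%, 54.0 to 55.4%). Symbols differ between annotations, so a missing name does not show a gene without a peak.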
